A study of Mus musculus with 12 samples.

Results

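The pentose phosphate pathway is described here by 7 of its genes, which were chosen by name: Pgls and Pgd of the oxidative branch, H6pd of the endoplasmic reticulum, and Rpia, Rpe, Tkt and Taldo1 of the non-oxidative branch. All 7 were found among the 53715 gene identifiers of the count table and all 7 passed the filter on low counts, which left 18542 genes for testing. RNA was sequenced from 12 spleen samples in 3 groups of 4, numbered as replicates 1 to 12. Every mouse was BXSB.Cg-Cd8atm1Mak Il15tm1Imx Yaa, a line called Yaa DKO, so the lupus-prone Yaa background and the targeted alleles of Cd8a and Il15 were shared by all groups and no group without them was analysed here. Replicates 1 to 4 were untreated at 6 weeks of age, before symptoms, replicates 5 to 8 were untreated at 10 weeks, when mice are symptomatic, and replicates 9 to 12 were 10 weeks old and had drunk water with 2-deoxyglucose (2DG) at 6 g/L. 2DG is a glucose analogue that hexokinase phosphorylates and glycolysis cannot use further.

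The pathway branches from glycolysis at glucose 6-phosphate. Its oxidative branch makes NADPH, which supplies fatty acid synthesis, glutathione reduction and the oxidative burst of phagocytes, and ends in ribulose 5-phosphate. Its non-oxidative branch turns pentose phosphates into ribose 5-phosphate for nucleotides or returns them to glycolysis, and is reversible. In the spleen its products serve dividing lymphocytes, phagocytes and red cells, which depend on its NADPH.

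None of the 7 genes passed the test in any of the 3 comparisons. Levels are CPM, counts scaled to a common library size with TMM factors, and a gene was called when its adjusted p (edgeR's quasi-likelihood test, Benjamini-Hochberg over all genes tested) was under 0.05. With 2DG against untreated spleens at 10 weeks 0 of 7 were called and 7.42% of all genes tested. In a list of 7 genes, 0 calls cannot be told from that share. With age, at 10 against 6 untreated weeks, 0 of 7 were called and 0.00539% of all genes. For 2DG at 10 weeks against 6 weeks 0 of 7 were called and 0.129% of all genes. At an unadjusted p under 0.05 in edgeR's test the members counted 1, 0 and 1 of 7, Pgd in the first comparison and Taldo1 in the last. Of all 18542 genes tested 4549, 3179 and 3132 had such a p. DESeq2 called 0 of 7 in each comparison. The 95% intervals of the fold changes, taken gene by gene, ran no lower than 0.643-fold and no higher than 1.71-fold over all 7 genes and 3 comparisons, both bounds being those of H6pd, so every interval left out a change of 2-fold. These intervals rest on a spread per gene that the fit shares over the 3 groups, although spread differed between the groups (below).

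Total counts ran from 15596040 to 26079979 per library, and none of the 7 genes had fewer than 764 counts in any library. The labels do not say that each sample was its own mouse, so p-values judge differences against a spread that may in part be technical. B cell and T cell markers were present in every library (Cd79a at 324 to 541 CPM, Cd3e at 44.7 to 67.3 CPM), while the liver markers Alb and Apoa1 were at most 0.0893 CPM. Of the 3 pancreas markers, Cela1 stood at 6.69 to 24.5 CPM in all libraries, and Cpa1 and Prss2 reached 6.49 and 4.52 CPM in 2DG replicate 10; the summed list of 5 was 35.6 CPM there and 7.06 to 19.6 CPM in the other libraries, and its part in the results was not tested. Spread over all genes, as edgeR's biological coefficient of variation, was widest in untreated 10-week spleens (0.241; 0.127 in the 6-week and 0.114 in the 2DG group). Replicate 8 correlated more with the 6-week libraries (median r = 0.991) than with its own group (0.98). Replicate 6 had the highest summed macrophage, monocyte, neutrophil and T cell markers of all 12 libraries and the lowest summed B cell, erythroid and proliferation markers. Some results that rest on replicate 6 or 8 are given with and without them, and others as a range over the alternatives.

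Promoter windows of the 7 genes were searched for known motifs. The genes matched 8 RefSeq windows of GRCm38.p6, each from 250 bases before to 50 after a gene start, Pgd having 2. The H6pd window (chromosome 4, 150003187 to 150003486) and the Tkt window (chromosome 14, 30548881 to 30549180) lay inside the gene coordinates printed below. For these genes the start given by those coordinates was not searched. Both strands were searched for TGACNNNGC, the core of the antioxidant response element to which NRF2 binds, and for CACGTG, an E-box; a match of one can share bases with a match of the other. TGACNNNGC was found in 12.4% of 32851 windows in the table and CACGTG in 7.15%. None of the 8 windows held CACGTG, and TGACNNNGC was found in 1 of the Pgd windows, inside the transcript. A match describes these letters and shows no binding, and the lack of one says only that the letters are not in the window.

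**Figure D1:**
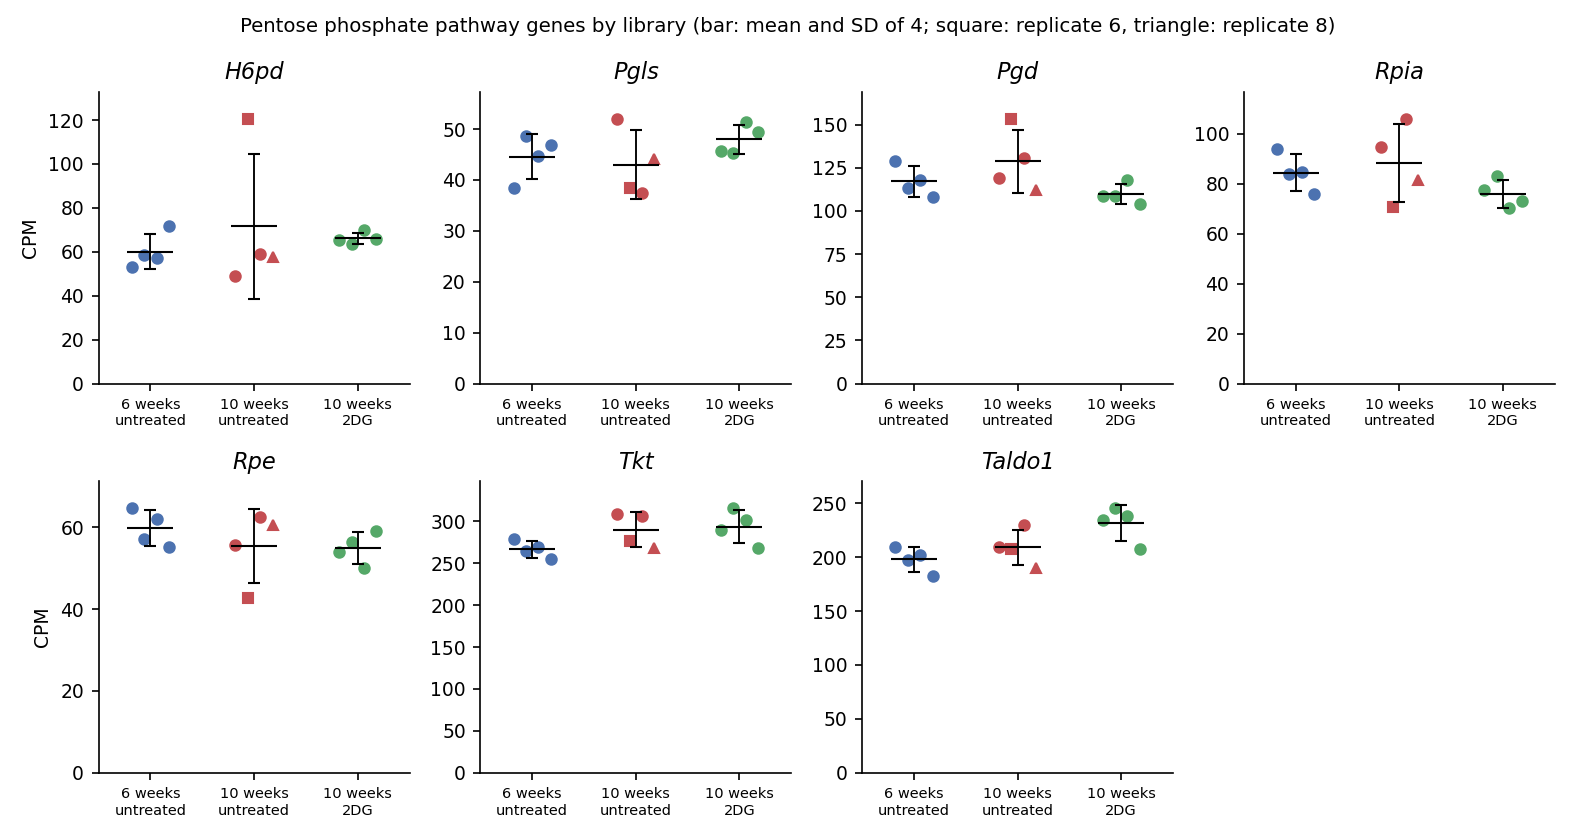
CPM of the 7 pathway genes in each library (y axis, starting at 0, one panel a gene; square for replicate 6, triangle for replicate 8) for the untreated 6-week, untreated 10-week and 2DG groups (x axis); points are libraries, bars are group means and lines 1 SD, n = 4. The groups overlap in every panel, and untreated 10-week replicate 6 stands high for H6pd at 120.7 CPM and for Pgd at 153.6 CPM.

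Pgls (ENSMUSG00000031807.10, chromosome 8, 71592176 to 71601092, plus strand, GRCm38) encodes 6-phosphogluconolactonase, which opens the ring of 6-phosphogluconolactone. Its libraries ranged from 38.4 to 48.5 CPM at 6 weeks, from 37.4 to 52.1 CPM at 10 weeks untreated and from 45.4 to 51.4 CPM with 2DG. The 2DG libraries lay within the range of the untreated ones, and the log2 change between them was 0.16 (SE 0.11, edgeR adjusted p = 0.392). With age it was -0.05 (95% interval -0.28 to 0.18). Pgls shares 776 exon bases on the same strand with Fam129c, a gene with 609 to 1918 counts, so part of its reads could belong to either; the sources used here do not say how such reads were assigned.

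Pgd (ENSMUSG00000028961.15, chromosome 4, 149149991 to 149166771, minus strand) encodes 6-phosphogluconate dehydrogenase, which makes NADPH and yields ribulose 5-phosphate. It stood at 129.2, 113.1, 118.0 and 108.1 CPM at 6 weeks, at 118.9, 153.6, 130.5 and 111.9 CPM in untreated replicates 5 to 8, and at 108.7, 108.8, 118.2 and 104.0 CPM in 2DG replicates 9 to 12. Replicate 6 was the highest of all libraries, and 3 of 4 2DG libraries lay below all untreated 10-week libraries, replicate 11 being the exception. The log2 change with 2DG at 10 weeks was -0.23 (SE 0.092, 95% interval -0.43 to -0.03), with an unadjusted p of 0.0286 in edgeR's test and an adjusted p of 0.151. Over the alternatives it ran from -0.30 to -0.13, and no setting brought its adjusted p under 0.0517. With age the log2 change was 0.14 (edgeR adjusted p = 0.483), and for 2DG against 6 weeks -0.09 (edgeR adjusted p = 0.681).

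H6pd (ENSMUSG00000028980.14, chromosome 4, 149979475 to 150009023, minus strand) encodes hexose-6-phosphate dehydrogenase, which carries out the dehydrogenase and lactonase steps in the lumen of the endoplasmic reticulum and makes NADPH there. It stood at 53.1, 58.5, 57.0 and 71.9 CPM at 6 weeks, at 48.8, 120.7, 59.1 and 57.8 CPM in untreated replicates 5 to 8, and at 65.4, 63.7, 69.7 and 65.7 CPM with 2DG. Replicate 6 held 2.47 times the level of replicate 5, and the other 3 untreated 10-week libraries all lay below the 4 libraries with 2DG. The log2 change with 2DG at 10 weeks was -0.12 (SE 0.24, edgeR adjusted p = 0.820); without replicate 6 it was 0.26 (edgeR adjusted p = 0.115). With age it was 0.25 (edgeR adjusted p = 0.630), and -0.12 without replicate 6. The sign of H6pd in both comparisons therefore rested on that library. Its coefficient of variation was 46.2% in untreated spleens at 10 weeks, 13.6% at 6 weeks and 3.86% with 2DG, whereas the medians over 9112 well-counted genes were 10.8%, 6.399% and 5.93%.

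Rpia (ENSMUSG00000053604.5, chromosome 6, 70765720 to 70792232, minus strand) encodes ribose-5-phosphate isomerase, which makes ribose 5-phosphate from ribulose 5-phosphate. It stood at 93.7, 83.6, 84.4 and 75.8 CPM at 6 weeks, at 94.7, 70.6, 106 and 81.5 CPM in untreated replicates 5 to 8, and at 77.5, 83.0, 70.2 and 72.9 CPM with 2DG. Replicate 7 was the highest library and replicate 6 lay beside the lowest 2DG library. The log2 change with 2DG at 10 weeks was -0.22 (SE 0.11, edgeR adjusted p = 0.256). With both replicates 6 and 8 left out it was -0.41, with an edgeR adjusted p of 0.00869, the only setting in which a pathway gene was called in this comparison; that fit rests on untreated replicates 5 and 7, the libraries with the highest summed plasma cell markers, 6559 and 6416 CPM. With age the log2 change was 0.06 (edgeR adjusted p = 0.814), and -0.03 without replicate 7.

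Rpe (ENSMUSG00000026005.15, chromosome 1, 66700831 to 66719805, plus strand) encodes ribulose-5-phosphate epimerase, which makes the xylulose 5-phosphate that transketolase uses. It ranged from 55.1 to 64.8 CPM at 6 weeks, from 42.6 to 62.5 CPM at 10 weeks untreated and from 50.1 to 59.1 CPM with 2DG. Its lowest value of all libraries was that of replicate 6. The log2 change with 2DG at 10 weeks was -0.01 (95% interval -0.24 to 0.22), and with age -0.11 (95% interval -0.34 to 0.12). Rpe shares 558 exon bases with Kansl1l on the opposite strand, which had 579 to 889 counts against 898 to 1516 for Rpe, and the library kit does not mark strand.

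Tkt (ENSMUSG00000021957.7, chromosome 14, 30548359 to 30574720, plus strand) encodes transketolase, which moves 2-carbon units between sugar phosphates. It stood at 278.4, 264.4, 269.2 and 254.4 CPM at 6 weeks, at 308.8, 277.0, 306.2 and 267.7 CPM in untreated replicates 5 to 8, and at 289.7, 316.1, 301.0 and 268.1 CPM with 2DG. Replicates 8 and 12, the lowest of their groups, lay among the 6-week values. Between 2DG and untreated spleens at 10 weeks the log2 change was 0.02 (SE 0.067), with a 95% fold interval of 0.917 to 1.12, the narrowest of the 7 genes. With age it was 0.12 (edgeR adjusted p = 0.376), and for 2DG against 6 weeks 0.14 (edgeR adjusted p = 0.316).

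Taldo1 (ENSMUSG00000025503.5, chromosome 7, 141392199 to 141402968, plus strand) encodes transaldolase, which moves 3-carbon units and, with transketolase, joins the pathway back to glycolysis. It stood at 209.9, 197.8, 202.1 and 182.3 CPM at 6 weeks, at 209.5, 207.6, 229.6 and 189.7 CPM in untreated replicates 5 to 8, and at 234.1, 245.9, 238.2 and 207.7 CPM with 2DG. In both comparisons 3 of 4 2DG libraries lay above every library of the other group, and replicate 12 did not. Against 6 weeks the log2 change with 2DG was 0.22 (SE 0.073, 95% interval 0.07 to 0.38), with an unadjusted p of 0.00892 in edgeR's test and an adjusted p of 0.146. With voom and quality weights, which let libraries differ in reliability, it was 0.23 with a limma adjusted p of 0.0346, the only call of a pathway gene in this comparison. Against untreated spleens at 10 weeks the log2 change was 0.15 (SE 0.073, edgeR adjusted p = 0.239), and with age 0.08 (edgeR adjusted p = 0.624). Both comparisons with 2DG use the same 2DG libraries, and each shares its untreated group with the comparison of ages. They are given side by side.

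**Figure D2:**
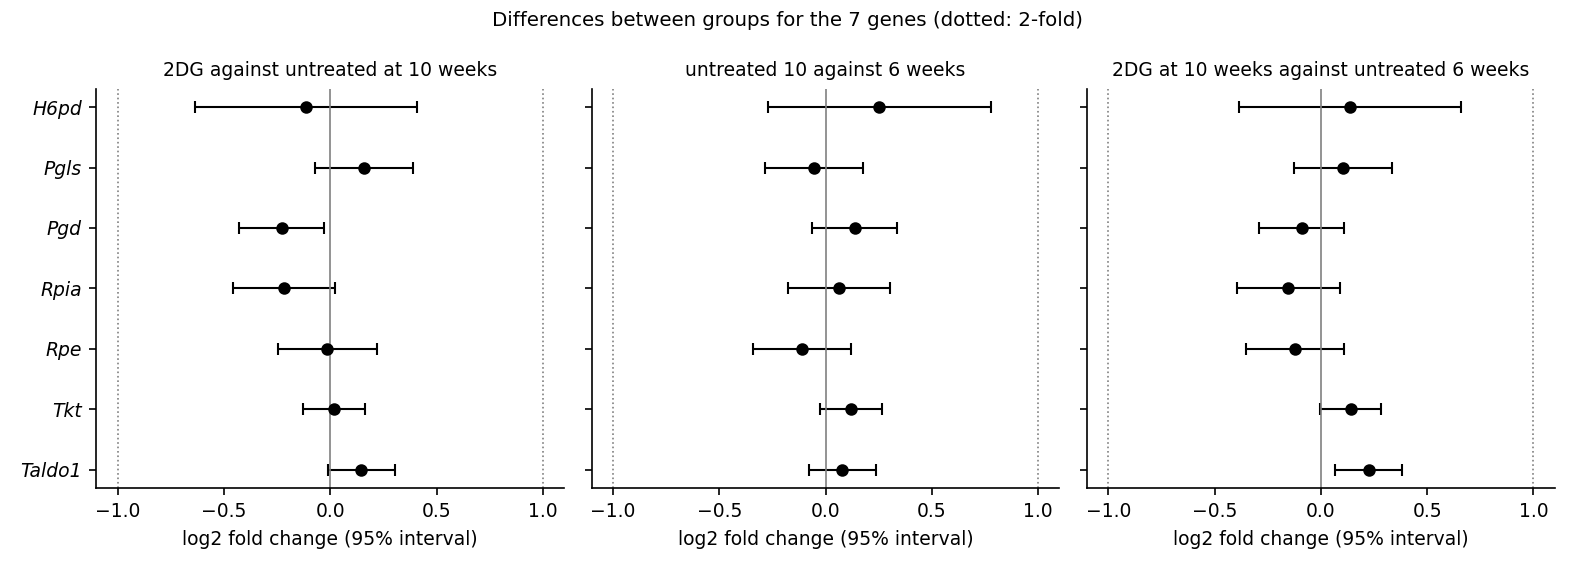
Log2 fold changes of the 7 genes (x axis) with 95% intervals in the 3 comparisons, from the edgeR fit over 12 libraries. Every interval lies within 1 log2 unit of zero, that of H6pd is the widest, and only those of Pgd (2DG against untreated at 10 weeks) and Taldo1 (2DG against 6 weeks) leave out zero before adjustment.

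Described as a list, the 7 genes had a median log2 change of -0.01 with 2DG at 10 weeks, 3 positive and 4 negative, beside 0.01 over all genes tested. The median size of the change, whatever its sign, was 0.15 for these genes and 0.16 for all genes. With age the median was 0.08, with 5 positive and 2 negative, beside 0.01 for all genes, and for 2DG against 6 weeks it was 0.10, with 4 positive and 3 negative, beside -0.002. Summed over the 7 genes, levels were 794 to 867 CPM at 6 weeks, 813 to 931 CPM at 10 weeks untreated and 827 to 919 CPM with 2DG. These ranges overlapped throughout.

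Pgls and Pgd were set against the non-oxidative genes as a ratio within each library. Summed CPM of Pgls and Pgd divided by that of Rpia, Rpe, Tkt and Taldo1 gave 0.259 to 0.273 at 6 weeks and 0.238 to 0.260 in untreated replicates 5, 7 and 8. Replicate 6 gave 0.321, the highest of all libraries, with 192.0 CPM of Pgls and Pgd and the lowest non-oxidative sum of its group (597.8 CPM). With 2DG the ratio ran from 0.220 to 0.257, below every 6-week library and overlapping untreated replicates 5 and 7. These ratios are a description and were not tested. Replicate 6 also held 3714 CPM of summed macrophage markers against at most 2321 CPM in the other libraries, 3494 against at most 2655 CPM of neutrophil markers and 2501 against at least 3405 CPM of B cell markers. Their part in its ratio was not tested, and in whole spleen RNA fewer cells of a type and less RNA per cell cannot be told apart.

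**Figure D3:**
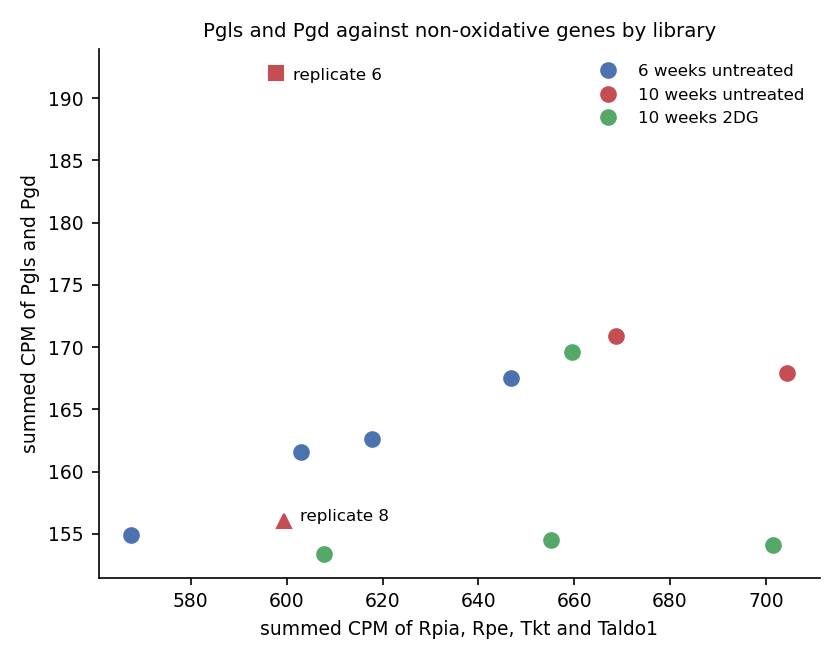
Summed CPM of Rpia, Rpe, Tkt and Taldo1 (x axis) against that of Pgls and Pgd (y axis) in each of 12 libraries, coloured by group; squares and triangles mark replicates 6 and 8, and neither axis starts at 0. Untreated 10-week replicate 6 lies apart at 597.8 and 192.0 CPM, and the ratio in the other 11 libraries runs from 0.220 to 0.273.

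Levels of different genes can be compared only per length, as CPM per kilobase of merged exons. Taldo1 was highest in each group, at 91.2 ± 5.35 CPM per kilobase at 6 weeks, 96.3 ± 7.53 at 10 weeks untreated and 106.6 ± 7.65 with 2DG. Tkt followed at 36.3 ± 1.36, 39.4 ± 2.81 and 39.9 ± 2.75. Rpe and Pgd came next and did not differ beyond their spread in any group (19.2 ± 1.42 and 18.2 ± 1.40 at 6 weeks). Rpia stood at 15.8 ± 1.37 at 6 weeks, and Pgls and H6pd, at 11.8 ± 1.18 and 11.5 ± 1.56, were lowest and within each other's spread. Merged exons count every annotated exon, so the order was repeated, after the values were seen, with the length of 1 principal transcript a gene. Taldo1 and Tkt kept their places (161.1 and 82.7 CPM per kilobase at 6 weeks) and H6pd was last (13.2), while Rpe moved from the third to the sixth place (22.2), behind Pgd (52.8), Pgls (49.95) and Rpia (46.1). Taldo1 and Tkt led in every group under both lengths, and the order below them depended on the length used.

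Across the 12 libraries some of the 7 genes varied together. Tkt and Taldo1, the transferases of the non-oxidative branch, had a Pearson r of 0.856 (rho 0.881) on log2 CPM, and 0.855 without replicate 6. Rpia and Rpe had r = 0.667, and 0.639 without it. Pgls and Pgd, which were summed in the ratio above, ran opposite to each other (r = -0.691, rho -0.448, and -0.614 without replicate 6). H6pd ran opposite to Rpe (r = -0.848, and -0.554 without replicate 6) and to Rpia (r = -0.664, and -0.740 without it). These are descriptions over libraries that share groups and scaling, with no p, and replicate 6 stands apart in several of them.

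Summed cell type markers moved with single pathway genes. For Pgd, H6pd, Taldo1, Tkt and Rpia the relation largest in size over 12 libraries was picked after the values were seen. Pgd ran opposite to B cell markers (r = -0.851, rho -0.676 over 12 libraries, -0.595 without replicate 6), and H6pd ran with T cell markers (r = 0.768, and 0.587 without it). Pgd also ran with monocyte markers (r = 0.788, and 0.43 without replicate 6). Without replicate 6 the relations of H6pd that were largest in size were opposite ones, with plasma cell markers (r = -0.804, and -0.299 over 12 libraries) and effector lymphocyte markers (-0.754, and 0.121 over 12). Taldo1 ran with erythroid markers (r = 0.815, and 0.95 without replicate 6), whose sums were 1696 to 2438 CPM at 6 weeks, 974 to 4292 CPM at 10 weeks untreated and 2848 to 6183 CPM with 2DG. Of the 7 erythroid markers tested 0 were called with 2DG at 10 weeks, beside 7.42% of all genes, with a median log2 change of 1.02. Tkt ran with proliferation markers (r = 0.774, and 0.921 without replicate 6), and Rpia with plasma cell markers (r = 0.738, and 0.845 without it). Taldo1 also ran with proliferation markers (r = 0.746, and 0.899 without replicate 6), with a rho of 0.853 for both marker lists. Rpia ran opposite to T cell markers (r = -0.729, and -0.682 without replicate 6). The largest relations of Pgls and Rpe were with monocyte (r = -0.613) and macrophage markers (-0.636). Without replicate 6 these were -0.492 and -0.095. On deviations from group means the relations picked gave r = -0.912 (Pgd), 0.803 (H6pd), 0.668 (Taldo1), 0.803 (Tkt) and 0.747 (Rpia). On that measure Rpia had a higher r with proliferation (0.927) and erythroid markers (0.877). Without taking out group means these were 0.494 and 0.173. Of 7 plasma cell markers 6 were called lower with 2DG at 10 weeks, beside 975 of 18542 genes, and all 7 values were negative. Plasma cell markers summed to 3597 to 6559 CPM in untreated 10-week libraries and 1611 to 2511 CPM with 2DG. No marker of these lists was at 0 in all libraries. The part of cell composition in the levels of these genes was not tested.

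The genes whose levels followed each pathway gene most closely, among 8609 well-counted genes, were ranked by Pearson r of log2 CPM over 12 libraries. For Pgd they were Msrb1, a methionine sulfoxide reductase (r = 0.948), and Rnf149 (0.927), and for H6pd Map4k3, a kinase (0.967), and Kif1b, a kinesin (0.964). Without replicate 6 these 4 values were 0.889, 0.811, 0.86 and 0.868. For Pgls they were Dtnb (0.891) and BC035044 (0.888). In the non-oxidative branch they were Ergic2 (0.97) and Top1, a topoisomerase (0.928), for Rpia, and Dzip3 (0.973) and Elavl1, an RNA-binding protein (0.937), for Rpe. Without replicate 6 the values for Rpe were 0.932 and 0.835. For Tkt they were Ndufb9, a subunit of respiratory complex I (0.96), and Xpnpep1, an aminopeptidase (0.953). For Taldo1 they were Il1rl1, the receptor of interleukin 33, and Tnfaip2 (0.972 each), and without replicate 6 these were 0.973 and 0.972. The highest r out of 8609 is a description of these libraries.

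Genes at the edges of the pathway were read in the same fit, in which 401 of 18542 genes were higher and 975 lower with 2DG at 10 weeks (7.42% called in all). Of 11 glycolytic genes at the junctions 1 was higher and 2 were lower with 2DG at 10 weeks, with a median log2 change of -0.52. Hk2, the hexokinase that feeds glucose 6-phosphate to both routes, stood at 50.6 ± 10.1 CPM untreated and 26.7 ± 0.728 CPM with 2DG, a fall of log2 change -0.92 (SE 0.14) with an edgeR adjusted p of 0.0032. All 4 libraries with 2DG lay below the untreated ones, and the call held in all 20 alternatives. Pfkp, a phosphofructokinase of the step that keeps sugar in glycolysis, fell from 159.8 ± 40.5 to 101.1 ± 10.9 CPM (edgeR adjusted p = 0.0184), and its sister isoform Pfkm rose from 28.8 ± 5.45 to 44.5 ± 9.48 CPM (edgeR adjusted p = 0.0278) with overlapping libraries. The call of Pfkp was lost in 3 of 20 alternatives, among them those without 2DG replicate 10 or 11 (edgeR adjusted p up to 0.0691). That of Pfkm was lost in 8, among them those without untreated replicates 5 or 6 or 2DG replicates 9, 10 or 11 (up to 0.114). In untreated replicates 5 to 8 Pfkm stood at 27.9, 26.0, 36.7 and 24.6 CPM. In 2DG replicates 9 to 12 it stood at 45.0, 56.7, 42.6 and 33.65 CPM. The summed erythroid markers of these libraries were 2105, 974, 4292 and 1917 CPM, and 4988, 6183, 4644 and 2848 CPM. Their part in the value of Pfkm was not tested. With age none of the 11 was called, although all 11 values were positive (median 0.29), and Aldoa, an aldolase, had the smallest p (log2 change 0.29, edgeR adjusted p = 0.126; called by DESeq2, without untreated replicate 8, and without replicates 6 and 8). For 2DG against 6 weeks the smallest p was that of Pfkm (log2 change 0.73, edgeR adjusted p = 0.0746; called in 7 of 20 alternatives, among them DESeq2, voom and those without untreated replicates 6 or 7 or 2DG replicate 12).

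Of all genes tested 7.42%, 0.00539% and 0.129% were called in the 3 comparisons, in the order given above. Among 12 tested relatives of the pathway and users of ribose 5-phosphate 0 were called in any comparison. With 2DG at 10 weeks the smallest p was that of Prpsap2, a partner of phosphoribosyl pyrophosphate synthetase, at 19.0 ± 2.59 and 24.5 ± 2.90 CPM (log2 change 0.37, edgeR adjusted p = 0.0529; called by DESeq2 on all libraries with an adjusted p of 0.0242, without untreated replicate 8, and without replicates 6 and 8). With age it was Prps2, a phosphoribosyl pyrophosphate synthetase (log2 change -0.27, edgeR adjusted p = 0.183; called without untreated replicate 8, and without replicates 6 and 8), and against 6 weeks Idnk, a gluconokinase (log2 change -0.15, edgeR adjusted p = 0.198). Of 18 genes of purine and pyrimidine synthesis 1 was lower with 2DG at 10 weeks, beside 975 of 18542 genes tested. In a list of 18 genes 1 call cannot be told from that share. It was Impdh1, of guanine nucleotide synthesis, which fell from 38.6 ± 7.10 to 28.3 ± 2.38 CPM (edgeR adjusted p = 0.0400). The call was lost in 11 of 20 alternatives, 9 of them among the 12 fits with 1 library left out; it held without 6-week replicate 3 and without untreated replicates 7 or 8, and edgeR adjusted p ran up to 0.124. With age the smallest p of this list was again that of Impdh1 (log2 change 0.34, edgeR adjusted p = 0.179; called without untreated replicate 8), and against 6 weeks that of Rrm2, of ribonucleotide reductase (log2 change 0.84, edgeR adjusted p = 0.125; called by DESeq2 with an adjusted p of 0.0131 and by voom with 0.0327).

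Other sources and uses of NADPH were read beside the same 7.42% of all genes. Of 13 tested genes, a list of NADPH producers and NAD kinases, 1 was higher with 2DG at 10 weeks. It was Nadk2, a mitochondrial NAD kinase and not itself an NADPH producer, which rose from 9.42 ± 3.03 to 15.9 ± 2.82 CPM (edgeR adjusted p = 0.0360). The call was lost in 12 of 20 alternatives. Among the fits with 1 library left out it held only without 6-week replicate 1, untreated replicate 7 or 2DG replicate 12. In the others the edgeR adjusted p ran up to 0.118. Nadk2 stood at 8.71, 6.90, 13.8 and 8.23 CPM in untreated replicates 5 to 8. In 2DG replicates 9 to 12 it stood at 16.6, 18.8, 16.15 and 12.05 CPM. Erythroid sums of these libraries were 2105, 974, 4292 and 1917 CPM, and 4988, 6183, 4644 and 2848 CPM. Their part in the value of Nadk2 was not tested. With age the smallest p was that of Aldh1l1, a folate enzyme (log2 change 0.42, edgeR adjusted p = 0.217), and against 6 weeks that of Nadk2 (log2 change 0.76, edgeR adjusted p = 0.0986; called in 7 of 20 alternatives, among them DESeq2, voom and those without untreated replicates 6 or 7 or 2DG replicate 12). Of 6 subunits of the phagocyte NADPH oxidase 1 was lower at 10 weeks with 2DG: Cybb, the catalytic subunit, fell from 664 ± 65.6 to 463 ± 27.7 CPM (log2 change -0.52, edgeR adjusted p = 0.00397), lower in 4 of 4 libraries and called in all 20 alternatives. Macrophage and monocyte marker lists had 1 of 8 and 2 of 6 genes lower in the same comparison, and their part in the value of Cybb was not tested. With age Cybb had a log2 change of 0.30 (edgeR adjusted p = 0.128; called by DESeq2, without untreated replicate 8, and without replicates 6 and 8), and against 6 weeks the smallest p was that of Ncf1, an oxidase subunit (log2 change -0.22, edgeR adjusted p = 0.133; called with only the compared groups, at 0.0403, and by voom, at 0.0301).

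The list of glutathione, thioredoxin and NRF2 target genes had 3 of 16 higher and 2 lower with 2DG at 10 weeks, with a median of 0.21, beside 401 higher and 975 lower of 18542 genes. Slc7a11, the cystine transporter, fell from 73.1 ± 11.0 to 46.8 ± 5.16 CPM (log2 change -0.64, edgeR adjusted p = 0.00667), called in all 20 alternatives. Txn1, thioredoxin, fell from 223 ± 42.4 to 152.7 ± 8.53 CPM (edgeR adjusted p = 0.0245), a call lost in 3 of 20 alternatives, those without untreated replicate 5 or 2DG replicates 10 or 11 (edgeR adjusted p up to 0.0812). Nqo1, a quinone reductase and a known target of NRF2, rose from 6.54 ± 2.15 to 12.8 ± 3.24 CPM (edgeR adjusted p = 0.0345), a call lost in 10 of 20 alternatives, among them those without untreated replicates 5, 6 or 8 or 2DG replicates 9, 10 or 11 (up to 0.12). Cat, catalase, and Gclc, of glutathione synthesis, both named after their values were seen, had log2 changes of 0.58 and 0.51 (edgeR adjusted p = 0.0433 and 0.0485). With 1 library left out Cat kept its call in 3 of 12 fits, those without untreated replicates 7 or 8 or 2DG replicate 12, and Gclc in 2, those without untreated replicate 7 or 2DG replicate 12; over all 20 alternatives 13 lost the call of Cat and 16 that of Gclc, with edgeR adjusted p up to 0.129 and 0.186. The 3 higher genes were read beside the summed erythroid markers. Nqo1 stood at 5.64, 4.65, 9.61 and 6.27 CPM in untreated replicates 5 to 8 and at 13.4, 16.6, 12.5 and 8.75 CPM in 2DG replicates 9 to 12, where the erythroid sums were 2105, 974, 4292 and 1917 CPM and 4988, 6183, 4644 and 2848 CPM. Gclc and Cat were likewise highest among the untreated 10-week libraries in replicate 7 (130.8 and 214.9 CPM) and among the 2DG libraries in replicate 10 (182.8 and 270.9 CPM), and lowest with 2DG in replicate 12 (116.5 and 212.7 CPM). Cat did not follow the erythroid sums in every library. It stood at 131.8 CPM in untreated replicate 5 and at 186.1 CPM in replicate 8, with erythroid sums of 2105 and 1917 CPM. At 6 weeks Cat was at 173.4, 192.1, 165.2 and 182.4 CPM in replicates 1 to 4. The erythroid sums there were 2438, 2138, 1792 and 1696 CPM. The part of erythroid cells in these values was not tested. With age the smallest p was that of Txn1 (log2 change 0.41, edgeR adjusted p = 0.153; called without untreated replicate 8, and without replicates 6 and 8), and against 6 weeks that of Nqo1 (log2 change 1.18, edgeR adjusted p = 0.0746; called in 7 of 20 alternatives, among them DESeq2, voom and those without untreated replicates 6 or 7 or 2DG replicate 12).

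**Figure D4:**
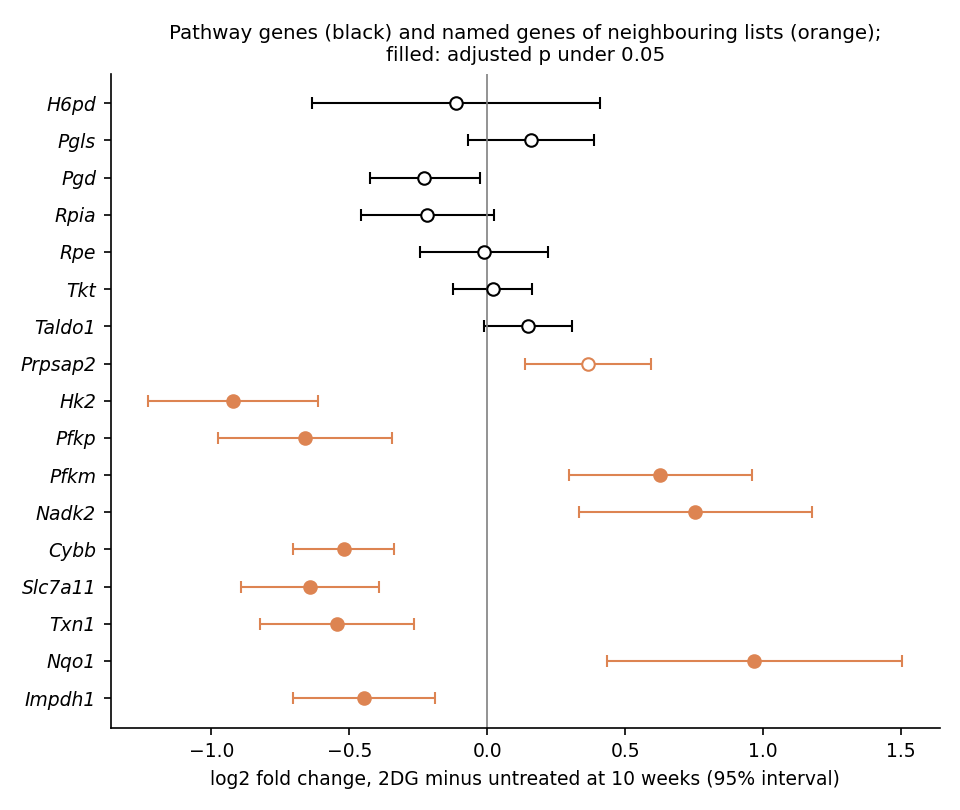
Log2 fold changes with 2DG against untreated spleens at 10 weeks (x axis) for the 7 pathway genes (black) and the genes named from neighbouring lists (orange); lines are 95% intervals from the edgeR fit, and points are filled where the adjusted p was under 0.05. The orange genes were picked for their small p. The 7 pathway genes lie within 0.23 of zero and none is filled, while Hk2 of glycolysis lies at -0.92 and Nqo1 at 0.97.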

How the data were processed

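Poly(A) RNA libraries from spleen were made with a TruSeq RNA v2 kit, per the labels' protocols. The authors deposited whole-number counts per gene; per the submitters' processing notes, Bowtie2 2.2.0, RSEM 1.2.12 and GRCm38 were used, and the handling of reads shared between genes is not given in the sources. Of 53715 identifiers 53620 matched GENCODE M21, which gave symbols, coordinates and lengths; where 2 identifiers carried a symbol (Aldoa, Nnt), the one with more counts was used. Groups came from the titles; replicate numbers run from 1 to 12 and pair nothing. No pair of libraries agreed within sampling noise.

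Counts were tested with edgeR 4.0.16 (R 4.3.3; TMM, filterByExpr, robust glmQLFit and glmQLFTest) over all 12 libraries, with Benjamini-Hochberg adjustment over 18542 genes. SE is the size of the log2 change divided by the square root of F; 95% intervals use the fit's degrees of freedom and are not adjusted. Correlations between genes and between libraries used log2 CPM with a prior count of 2. Those between libraries took all genes tested, and the ranking of likeness took genes averaging 4 log2 CPM or more. Correlations with summed markers used log2 of CPM without a prior count. Alternatives were DESeq2 1.42.0, median-of-ratios factors, other filters (none; 1 CPM in 4 libraries), only the compared groups, no immunoglobulin genes, voom with quality weights (limma 3.58.1), each library left out, and replicates 6 and 8 both left out. The fit was also run on simulated counts with the same spread per gene in every group. That run could not check unequal spread between groups.

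Members, lists and alternatives were chosen with earlier results of these data known. Some genes of the pathway and of the lists are not reported here. Named were all 7 members described and, from each other list and comparison, up to 3 called genes with the smallest p or else 1 gene, and for likeness the 2 genes with the highest r, leaving out predicted models, clone names and immune receptor segments.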

Additional observations from a re-analysis of the deposited data

Results flagged for a closer look

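In each group of 4 libraries the highest or lowest value was compared with the nearest other (Dixon's 95% rule), for the pathway genes, their ratio and sum, and the named genes of the other lists. Of 81 such groups 6 held an outlying library, and chance gives about 1 in 20. In untreated spleens at 10 weeks replicate 6 stood apart for H6pd, at 120.7 CPM against 48.8 to 59.1 CPM in the others. In the same group replicate 5 stood apart for Pfkp, at 220.3 CPM against 136.1 to 145.5 CPM. At 6 weeks replicate 1 stood apart for 3 genes: Nadk2 at 10.9 CPM against 8.66 to 9.04 CPM, Cybb at 613.8 CPM against 507.7 to 522.0 CPM, and Aldh1l1 at 2.88 CPM against 3.87 to 3.93 CPM. With 2DG replicate 10 stood apart for Aldoa, at 183.2 CPM against 206.3 to 206.8 CPM.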

How the results depend on the processing

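Of 420 alternative values over the 21 log2 changes of pathway genes, 401 kept their sign and their side of the threshold, 2 passed it and 17 changed sign. Both passes raised the count of pathway genes called to 1: Rpia with replicates 6 and 8 left out (-0.41) and Taldo1 against 6 weeks with voom (0.23). Of 480 values for 24 log2 changes of other named genes, 365 kept sign and side, 76 lost the call, 39 gained it and 0 changed sign.

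Sign changes, all without a call, were as follows for 2DG at 10 weeks. For H6pd the change was 0.11 with voom and 0.29 without replicates 6 and 8, and ran from -0.26 to 0.26 with 1 library left out (0.26 without replicate 6). For Rpe that range was -0.122 to 0.044, and for Tkt -0.025 to 0.06, with -0.072 without replicates 6 and 8. With age H6pd gave -0.15 and Pgls 0.011 without replicates 6 and 8. With 1 library left out the ranges with age were -0.117 to 0.397 for H6pd, -0.159 to 0.011 for Pgls, -0.034 to 0.161 for Rpia and -0.17 to 0.002 for Rpe. The cause was not tested.

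The number of genes called with 2DG at 10 weeks, 1376, was 2304 with DESeq2, 581 with only the compared groups, 3193 without replicates 6 and 8, and 514 to 2209 with 1 library left out: 725 without replicate 5, 2209 without replicate 8, 515 without replicate 10 and 514 without replicate 11. With age the number, 1, was 682 with DESeq2, 102 without a filter, 0 with only the compared groups, 2303 without replicates 6 and 8, and 0 to 1563 with 1 library left out, 1563 without replicate 8. Against 6 weeks the number, 24, was 902 with DESeq2, 98 without a filter, 1367 with only the compared groups, 1644 with voom, 758 without replicates 6 and 8, and 1 to 354 with 1 library left out; it was 1, 2, 1 and 1 without replicates 1 to 4, 51, 344 and 354 without replicates 5, 6 and 7, and 6, 2, 1 and 289 without replicates 9 to 12. No paired analysis was possible because replicate numbers run on across the groups. The 7 genes had at least 764 counts a library; counting error and spread between libraries were not separated in the intervals.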
